A study of Homo sapiens with 6 samples.

Results

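Levels of the clustered protocadherin genes were described in SH-SY5Y, an established human neuroblastoma cell line with noradrenergic neuron-like features. Members were the genes whose symbol is PCDHA, PCDHAC, PCDHB, PCDHGA, PCDHGB or PCDHGC followed by a number. This gave 54 of the 60709 genes with values, of which 16 belonged to the alpha cluster, 16 to the beta cluster and 22 to the gamma cluster. PCDHA14 fits the symbol rule but is annotated as a transcribed pseudogene, and the other 53 members are annotated as protein-coding. The labels describe 3 control wells and 3 wells given an Nrf2-peptide-linked fumarate, and name no genetic change in either group. Cells stood at 80% confluence in 2 mL of medium. Every well received 10 uL of DMSO, and cells were lysed after 5 h. For the peptide, 2 mg was dissolved in 600 uL of water and 200 uL went into the well. Columns of the count table could be matched by number to the control samples only, so samples given the peptide are not analysed here and the groups are not compared. The name control rests on this match. Had the columns been given new numbers, these 3 libraries might instead be peptide-treated.

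Clustered protocadherins are cadherin-like proteins of the neuronal surface that bind the same isoform on a facing membrane. In the alpha and gamma clusters each variable first exon has its own promoter, encodes the whole extracellular part of a protein, and is spliced to constant exons at the 3' end of the cluster that encode a common cytoplasmic tail. Beta genes have no constant exons. A neuron uses a subset of the variable promoters, which gives it a surface identity that lets branches of the same cell avoid each other, while the C-type genes (PCDHAC1, PCDHAC2, PCDHGC3, PCDHGC4 and PCDHGC5), at the 3' end of the alpha and gamma clusters, are known for broader use across neurons. Promoter choice is known to depend on CTCF and cohesin, which bring the promoters to distant enhancers, and on DNA methylation.

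The 3 libraries held 10683037, 11397407 and 8887854 counts. Levels are given as CPM, counts per 1000000 of the library total after TMM scaling, where 3 counts, the limit that a count of 0 allows, equal 0.281, 0.263 and 0.339 CPM in replicates 1, 2 and 3. Nothing in the labels says whether the wells were separate cultures, so the spread given here is that between these samples and may be technical. Of 13 noradrenergic neuroblastoma markers, 12 passed a minimum of 10 counts in each library, and TH, the enzyme that starts catecholamine synthesis, had 0. Of 9 mesenchymal neuroblastoma markers 8 passed, with PRRX1 at 0. The same minimum was passed by 62.3% of protein-coding genes. The median level was 217.4 CPM over the noradrenergic markers and 16.96 CPM over the mesenchymal markers. Single markers ran from 0 to 913.9 CPM and from 0 to 284.8 CPM in the same order, so the ranges overlapped. None of 3 blood markers, none of 3 endothelial markers and 1 of 4 epithelial markers passed, with LYZ, CDH5 and CDH1 at 0. Of 3 fibroblast markers, LUM (14.6 ± 0.601 CPM, SD, n = 3) and DCN (5.21 ± 0.235 CPM) passed, and COL1A2 had 1, 3 and 2 counts. In bulk RNA, fewer cells that use a protocadherin promoter and less RNA per cell cannot be told apart. A level seen here can therefore be even across cells or confined to some of them.

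The clusters lay in tandem on the plus strand of chromosome 5, in the order alpha, beta, gamma (GRCh38, GENCODE release 29). The alpha genes spanned chr5:140786136-141012347, the beta genes chr5:141051135-141249365 and the gamma genes chr5:141330571-141512981. All 15 coding alpha genes shared 3 exons, of 59, 89 and 2718 to 2721 bases, starting at 140978949, 140982475 and 141009627. All 22 gamma genes likewise shared 3 exons, of 59, 89 and 2033 to 2035 bases, starting at 141494807, 141505393 and 141510947. No exon was shared by beta genes in this way. The shared exons held 456 coding bases in the alpha cluster and 372 in the gamma cluster, against 2352 to 2565 and 2397 to 2514 coding bases in the variable exons.

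Sharing left each member with a different amount of sequence of its own. The median member had 50.5% of its exonic bases in no other gene in the alpha cluster, 94.9% in the beta cluster and 56.1% in the gamma cluster. PCDHA14 had 0 bases of its own, since it lies within exons of PCDHA10 on the same strand. How the counting treated reads in shared exons is not given in the sources used here, but the counts bear on it. PCDHA1 shares the 3 constant exons with every other coding alpha gene, and those genes summed to 870, 970 and 641 counts, yet it had 0 counts in each library. Reads in the constant exons were therefore not credited to every member that contains them. Levels per length are accordingly given as CPM per kilobase of a gene's own bases, and the sums below may leave out reads from the constant exons.

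**Figure D1:**
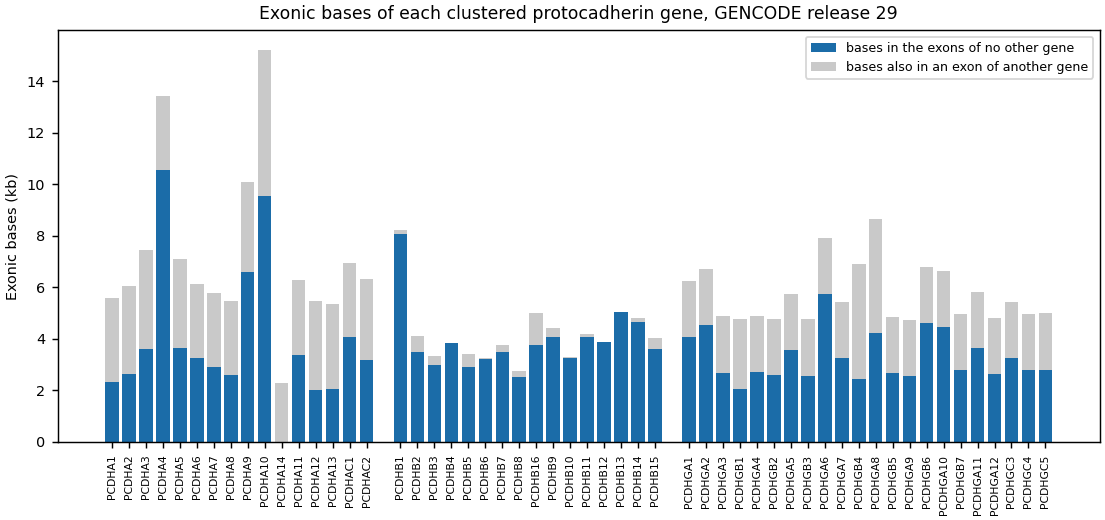
Exonic bases (kb) of each of the 54 clustered protocadherin genes in genomic order, split into bases found in the exons of no other gene (blue) and bases that also lie in an exon of another gene (grey). Grey fills about as much of the bar as blue in most alpha and gamma genes and little of it in beta genes, and PCDHA14 has no blue at all.

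Some of the own bases still recur elsewhere. Among 50-base windows of a member's own sequence, the median share that also occurs in another gene was 4.88% in the alpha cluster, 13.0% in the beta cluster and 5.83% in the gamma cluster. It was 0% in each of the 5 C-type genes and 0.342% in PCDHGA7. The highest shares were 45.1% in PCDHB8, mostly with PCDHB13, 33.5% in PCDHB10, mostly with PCDHB9, and 28.0% in PCDHA8, mostly with PCDHA6. Shares over 10% were found in 4 alpha, 12 beta and 6 gamma genes. The counts of those 22 genes are uncertain, because reads from such windows could be dropped or split, and their part in the levels was not tested. With windows of 100 bases, shares over 10% were found in 2 alpha, 5 beta and 3 gamma genes, and the beta median was 6.25%.

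The minimum of 10 counts per library was passed by 9 of 16 alpha, 10 of 16 beta and 8 of 22 gamma genes, together 27 of 54. Over all genes the share was 22.9%, and over protein-coding genes 62.3%. At least 1 count in each library was found for 48 of the 54, against 32.3% of all genes and 71.7% of protein-coding genes. PCDHA1, PCDHA14 and PCDHB1 had 0 counts in all 3 libraries, which 53.6% of all genes and 19.4% of protein-coding genes also had. Detection of the members thus lay above that of genes in general, and the share at 10 counts lay below that of protein-coding genes.

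Summed CPM, which is not corrected for the length of the genes, differed between the clusters. The alpha members summed to 81.4, 84.9 and 72.4 CPM in replicates 1, 2 and 3, a mean of 79.5 ± 6.44 CPM (SD, n = 3). The beta members summed to 104.9, 104.5 and 105.0 CPM, a mean of 104.8 ± 0.284 CPM. The gamma members summed to 189.5, 182.0 and 168.6 CPM, a mean of 180.0 ± 10.6 CPM. The 3 clusters did not overlap in any library, with gamma highest and alpha lowest. They held 21.8 ± 0.977%, 28.8 ± 1.35% and 49.4 ± 0.909% of the members' CPM, and all 54 genes together were 0.0364% of the library total.

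Within the alpha and gamma clusters the C-type genes carried most of the sum. PCDHAC1 and PCDHAC2 summed to 53.0 ± 5.18 CPM, against 26.5 ± 1.36 CPM for the 14 other alpha genes. PCDHGC3, PCDHGC4 and PCDHGC5 summed to 113 ± 5.79 CPM, against 48.0 ± 2.39 CPM for the 12 gamma A genes and 18.9 ± 2.57 CPM for the 7 gamma B genes. The 5 C-type genes together held 45.6 ± 1.03% of the CPM of all members. Their sum exceeded that of the variable genes of the same cluster in each of the 3 libraries.

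**Figure D2:**
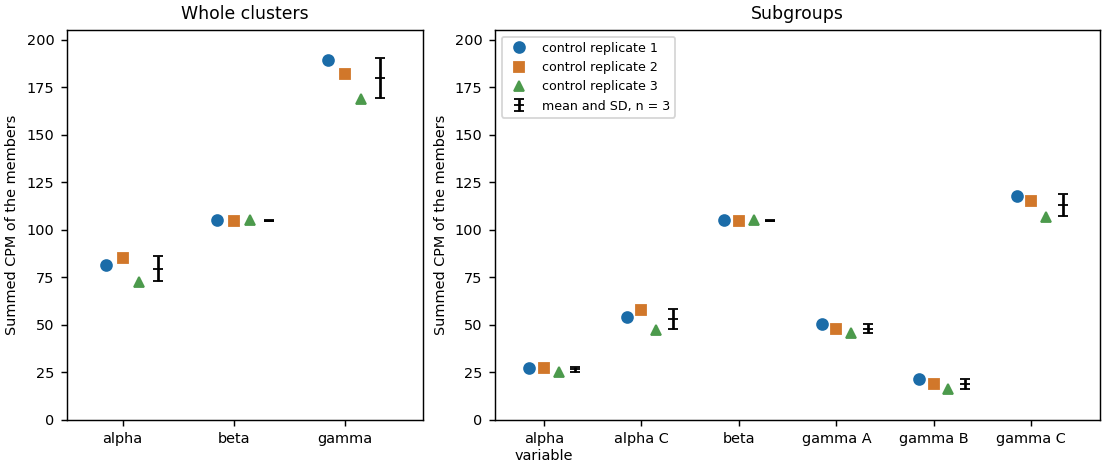
Summed CPM of the members of each cluster (left) and of each subgroup (right) in the 3 control libraries, with the mean and SD (n = 3) in black. The gamma sums lie between 168.6 and 189.5 CPM, above the beta sums near 105 and the alpha sums of 72.4 to 84.9, and the C-type genes are the higher part of both the alpha and the gamma cluster.

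The alpha cluster was dominated by its last gene. PCDHAC2 (ENSG00000243232.6, chr5:140966235-141012344) had 468, 537 and 329 counts, that is 43.8, 47.0 and 37.2 CPM, with a mean of 42.6 ± 5.02 CPM (SD, n = 3). It held 53.5 ± 2.03% of the alpha CPM. PCDHAC1 (ENSG00000248383.5, chr5:140926369-141012344), the other C-type alpha gene, had 109, 122 and 91 counts and a mean of 10.4 ± 0.258 CPM. PCDHAC2 was above PCDHAC1 in every library, by a wide margin against the spread between replicates.

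The variable alpha genes were lower, and few of them made up most of their sum. PCDHA4 (ENSG00000204967.12) had 74, 72 and 68 counts, a mean of 6.97 ± 0.690 CPM. PCDHA12 (ENSG00000251664.5) had 57, 74 and 36 counts, a mean of 5.29 ± 1.21 CPM. PCDHA8 (ENSG00000204962.6) had 46, 39 and 27 counts, a mean of 3.59 ± 0.644 CPM. Replicate 3 was the lowest library for PCDHA12 and PCDHA8 and the highest for PCDHA4. These 3 genes and the C-type pair held 86.6% of the alpha CPM. Of the other 11 alpha genes, 4 passed the minimum, at 1.82 to 2.86 CPM, and 5 had fewer, at 0.0753 to 0.489 CPM. The last of them are PCDHA1 (ENSG00000204970.10), with 0, 0 and 0 counts over 2331 own bases, and PCDHA14 (ENSG00000249504.3), with 0, 0 and 0 counts.

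PCDHAC2 also came first when levels were corrected for length. Its level per kilobase of own bases was 13.7, 14.7 and 11.6 CPM per kb, a mean of 13.3 ± 1.57. PCDHA12 followed with 2.63 ± 0.600 CPM per kb and PCDHAC1 with 2.55 ± 0.0634 CPM per kb, and these neighbours did not differ beyond their spread. PCDHAC1 came before PCDHA12 under each of the other 3 lengths. PCDHA8 came next with 1.37 ± 0.246 CPM per kb and PCDHA2 with 0.93 ± 0.163 CPM per kb. PCDHA4 had 0.66 ± 0.0653 CPM per kb, over a model with 10574 own bases. With the same CPM of the whole gene divided by the length of the main coding exon alone, the value was 2.92 CPM per kb for PCDHA4 and 2.76 CPM per kb for PCDHA12. The place of PCDHA4 in the order thus depends on the length taken, and reads were not counted by exon. PCDHAC2 came first under each of the 4 lengths tried, and its distance from PCDHAC1 depended on the length, with 15.0 against 4.27 CPM per kb by the main coding exon.

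The beta cluster was the most even. PCDHB14 (ENSG00000120327.7, chr5:141222932-141227759) had 225, 252 and 212 counts, that is 21.0, 22.1 and 23.9 CPM, a mean of 22.3 ± 1.47 CPM. PCDHB3 (ENSG00000113205.5, chr5:141100473-141103827) had 192, 215 and 160 counts, a mean of 18.3 ± 0.467 CPM. PCDHB9 (ENSG00000177839.7, chr5:141187127-141191541) had 193, 226 and 149 counts, a mean of 18.2 ± 1.48 CPM. These are surface receptors of the same build, with no constant tail, and together they held the larger part of the beta CPM. PCDHB4 (ENSG00000081818.4) followed with 141, 140 and 122 counts, 13.1 ± 0.769 CPM. PCDHB6 (ENSG00000113211.6) had 95, 118 and 95 counts, 9.98 ± 0.970 CPM.

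The highest beta gene held 21.3 ± 1.38% of its cluster, well under the share of the leading alpha or gamma gene. The 5 highest beta genes held 78.1% of the beta CPM, and 8 genes were needed to reach 90%, against 6 in the alpha and 5 in the gamma cluster. Expressed as an effective number of genes, the exponential of the Shannon entropy of the shares, the beta cluster had 8.80 of 16, the alpha cluster 5.14 of 16 and the gamma cluster 5.06 of 22. Among the other 11 beta genes, 5 passed the minimum, from 1.37 to 9.36 CPM, and 5 had fewer, at 0.48 to 1.61 CPM. PCDHB1 (ENSG00000171815.6, chr5:141051135-141059344), the first gene of the cluster, had 0, 0 and 0 counts over 8073 own bases.

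Per kilobase of own bases PCDHB3 came first in the beta cluster, with 5.99, 6.27 and 6.02 CPM per kb and a mean of 6.09 ± 0.156. PCDHB14 followed with 4.80 ± 0.316 and PCDHB9 with 4.47 ± 0.364 CPM per kb, whose libraries overlapped. PCDHB4 came next with 3.42 ± 0.201 and PCDHB6 with 3.11 ± 0.302 CPM per kb, and these overlapped as well. PCDHB3 lay above the others in every library. This order was the same under the 4 lengths tried. Recurring 50-base windows were 18.9% of PCDHB3, 10.9% of PCDHB14, 24.6% of PCDHB9, 14.8% of PCDHB4 and 12.7% of PCDHB6. With windows of 100 bases the shares were 8.82, 4.89, 10.9, 4.56 and 5.55% in the same order. Reads that match more than 1 beta gene could shift each of these levels.

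The gamma cluster held the most abundant member. PCDHGC3 (ENSG00000240184.7, chr5:141475947-141512979) had 1001, 1041 and 759 counts, that is 93.6, 91.1 and 85.7 CPM, a mean of 90.1 ± 4.03 CPM. It held 50.1 ± 0.716% of the gamma CPM and 24.7 ± 0.194% of the CPM of all members. Its cytoplasmic part is known to bind AXIN1, a scaffold of Wnt signalling. PCDHGC4 (ENSG00000242419.5, chr5:141484997-141512979), known as an isoform needed for survival of interneurons in mice, had 251, 266 and 181 counts, a mean of 22.4 ± 1.70 CPM. PCDHGC5 (ENSG00000240764.4, chr5:141489121-141512979) had 5, 11 and 4 counts, a mean of 0.63 ± 0.291 CPM. The 3 C-type gamma genes thus lay far apart, in the order PCDHGC3, PCDHGC4, PCDHGC5, without overlap between libraries.

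Among the gamma A and B genes a pair stood out. PCDHGA7 (ENSG00000253537.3, chr5:141382739-141512979) had 407, 407 and 294 counts, a mean of 35.6 ± 2.43 CPM, which was 74.2 ± 1.37% of the gamma A sum. PCDHGB7 (ENSG00000254122.3, chr5:141417645-141512979) had 172, 151 and 101 counts, a mean of 13.6 ± 2.36 CPM, which was 71.7 ± 2.74% of the gamma B sum. PCDHGA4 (ENSG00000262576.3) was the fifth gamma gene, with 37, 30 and 23 counts and 2.89 ± 0.490 CPM. The other 17 gamma genes, PCDHGC5 among them, lay between 0.119 and 2.38 CPM, and 3 of them passed the minimum. No gamma gene had 0 counts in all libraries. The 5 highest gamma genes held 91.4% of the gamma CPM.

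Per kilobase the 5 highest gamma genes kept their order, while places changed among the lower ones. PCDHGC3 had 28.8, 28.0 and 26.4 CPM per kb, a mean of 27.7 ± 1.24. PCDHGA7 had 10.9 ± 0.745, PCDHGC4 8.02 ± 0.608, PCDHGB7 4.87 ± 0.847 and PCDHGA4 1.07 ± 0.181 CPM per kb. No neighbouring pair among these 5 overlapped in any library, and their order was the same under the 4 lengths tried. Over protein-coding genes the median was 2.40 CPM per kb, and over the 12393 of them that passed the minimum of 10 counts it was 7.64 CPM per kb. PCDHGC3 stood at percentile 91.5 of all protein-coding genes, PCDHAC2 at 79.8, PCDHGA7 at 75.7, PCDHGC4 at 69.2 and PCDHB3 at 64.1. PCDHGC3, PCDHAC2 and PCDHGA7 lay above both medians, PCDHGC4 close to the second and PCDHB3 between them. The median member of the alpha cluster had 0.51, of the beta cluster 0.57 and of the gamma cluster 0.26 CPM per kb.

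**Figure D3:**
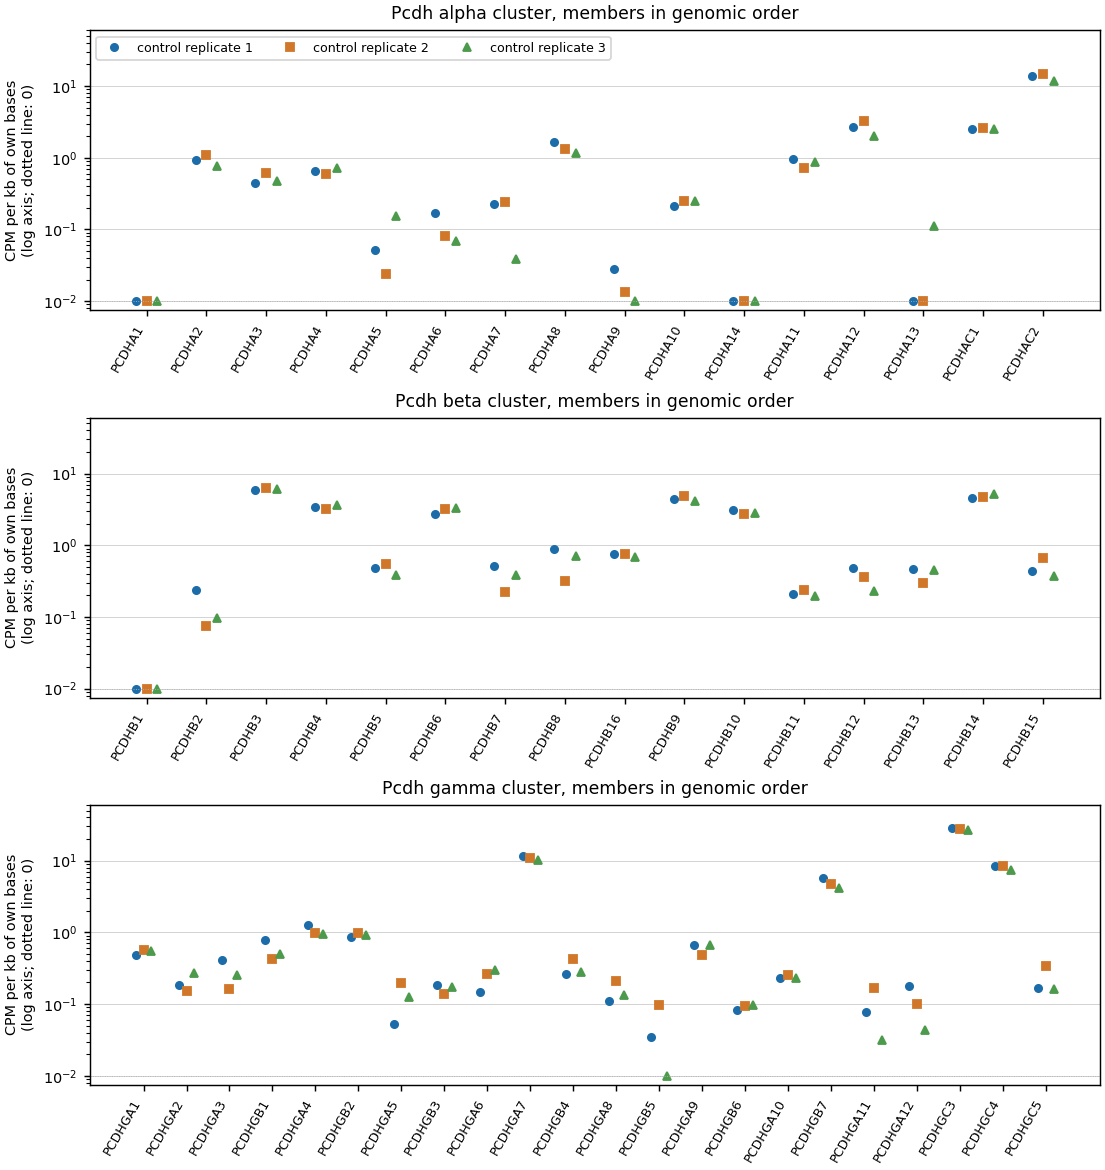
Level of every clustered protocadherin gene in genomic order, in CPM per kilobase of own bases on a log axis, with 1 symbol for each of the 3 control libraries and values of 0 on the dotted line (PCDHA14, which has no own bases, is drawn there too). PCDHAC2 tops the alpha panel at 13.3 CPM per kb on average, PCDHB3 the beta panel at 6.09 and PCDHGC3 the gamma panel at 27.7.

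The libraries gave the members in nearly the same order. Across the 54 genes, Spearman's rho was 0.949 for replicates 1 and 2, 0.970 for replicates 1 and 3, and 0.959 for replicates 2 and 3. These are correlations across genes of the same libraries, which differ in abundance over several orders of magnitude. Of the 27 members that passed the minimum, 3 differed by at least 1.5-fold between their lowest and highest library, against 9.74% of the 13920 genes that met the same minimum. The median ratio of the highest to the lowest library was 1.21 for the members and 1.18 for all those genes.

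Replicate 3 was lower in most members. It lay under the mean of replicates 1 and 2 in 18 of the 27 members and in 7168 of all 13920 genes, with a median difference of -0.11 on the log2 scale for the members and of -0.01 for all those genes. For the sums the log2 difference was -0.20 in the alpha, 0.0044 in the beta and -0.14 in the gamma cluster. The beta sums had a coefficient of variation of 0.271%, under the 2.89 to 3.28% that counting alone gives, while those of alpha (8.10%, against 3.21 to 3.95%) and gamma (5.87%, against 2.19 to 2.59%) were above it. PCDHAC2 varied by 11.8%, against a counting error of 4.32 to 5.51%, and PCDHGB7 by 17.4%, against 7.62 to 9.95%. Chi-square between libraries, divided by its degrees of freedom, had a median of 0.744 over the 27 members. Counting error alone gives a mean of about 1 and a median under 1, so this median does not show less spread than counting. It was 5.70 for PCDHAC2 and 4.02 for PCDHGB7.

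Libraries also differed by the GC content of genes, and the gamma difference was smaller once a GC trend was removed. In these libraries replicate 3 had a median deviation of 0.20 on the log2 scale among nuclear genes of the lowest GC (34.4%) and of -0.19 among those of the highest (67.4%). By the longest transcript, the median GC of the 8 gamma members with at least 10 counts was 55.0%. It was 47.9% for the 9 alpha and 47.4% for the 10 beta members. By own bases, the medians over all members that have own bases were 50.5% in alpha, 47.0% in beta and 52.6% in gamma. With the GC trend by longest transcript removed, the gamma difference became -0.0013 and the SD of the gamma sums went from 10.6 to 1.28 CPM. The alpha difference remained at -0.20 when the GC of the longest transcript was used. It became -0.12 when the GC of the own bases was used, which is 56.0% in PCDHAC2, and the gamma difference then became -0.04. The mitochondrially encoded share of the counts was also higher in replicate 3, 6.25% against 4.11 and 3.83%. Neither GC content nor this share was tested as a cause of these differences.

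**Figure D4:**
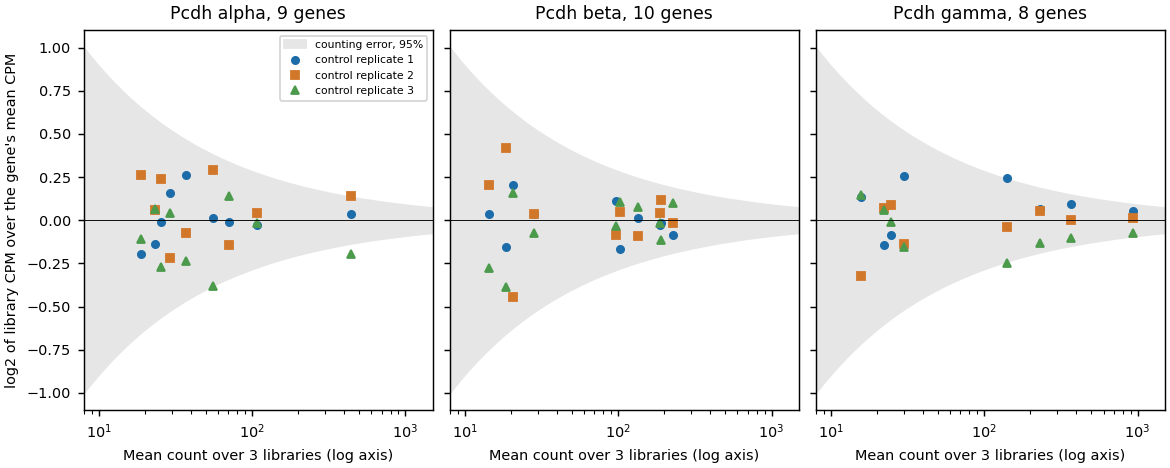
Deviation of each library from the gene's mean (log2 of library CPM over mean CPM) against the mean count (log axis) for the 9 alpha, 10 beta and 8 gamma genes that passed the minimum, with the 95% range of counting error in grey. Nearly all points lie within the grey range. PCDHAC2, on the right of the alpha panel, has points outside it, and PCDHGB7 has points just outside it. Replicate 3 is the lowest library for the 4 most abundant gamma genes.

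Promoter sequences were compared because each member is read from its own promoter. RefSeq windows from 250 bases before to 50 after the start (GRCh38.p14) were found for 47 of the 54 members. PCDHA3, PCDHA13, PCDHA14, PCDHB6, PCDHB11, PCDHGA12 and PCDHGC5 had no entry. In each cluster the 8-base word present in the most promoters was taken, and both strands were searched for it. It was ATGTCGCT in the alpha cluster, present in 9 of 13 promoters, GGTGGCGC in the beta cluster, present in 13 of 14, and GCCGCTGT in the gamma cluster, present in 11 of 20. Among all 35116 promoters these words occurred in 0.234%, 2.23% and 1.63%, and none occurred in a member of another cluster. The word began at a median of 52, 66 and 67 bases before the start (positions -52, -66 and -67), and the letters CGCT, which lie in the alpha and gamma words and span the end of the beta word, are the core of the element described for these promoters. CGCT occurred in 12 of 13 alpha, 14 of 14 beta and 20 of 20 gamma promoters, but also in 70.0% of all promoters. It was counted anywhere in the window, on either strand, and not only within the word. The sequences are those of the reference genome and not of the cell line.

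The 4 alpha stretches show the word in genes with few or no counts and in genes with more. The exact word is in capitals in PCDHA1, which had 0 counts, and in PCDHA12 and PCDHA8, which were among the highest variable alpha genes. The capitals in PCDHA9, which had 2, 1 and 0 counts, mark the closest stretch.
PCDHA1 (chr5:140786087-140786116, plus strand): ttggccacatgATGTCGCTgtacaccacaa
PCDHA12 (chr5:140875245-140875274, plus strand): tcagtcacatgATGTCGCTctacactcaga
PCDHA8 (chr5:140841131-140841160, plus strand): gaagccacatgATGTCGCTgtctaccaaga
PCDHA9 (chr5:140848288-140848317, plus strand): tgggccacgtgATGTCACTctttgccgcga
Substitutions are counted from 1 at the first base of the cluster's word, with the word's base first. PCDHA9 differed from the word by G6A, which falls in the CGCT core, and was the alpha promoter without CGCT. PCDHA11, at 2.86 CPM, differed by A1G. Members without the exact word were searched for a close stretch on the plus strand only. PCDHAC1 and PCDHAC2, the highest alpha genes, had no stretch there within 1 substitution of the alpha word, and the other 11 of 13 alpha promoters had one. Over all promoters both strands were searched, and 10.1% had such a stretch, so the shares are not fully alike. The exact word was thus present in variable genes from 0 to 6.97 CPM and absent from both C-type alpha genes. Its relation to the level was not tested.

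In the beta cluster the word was exact in every promoter with an entry except that of PCDHB1, which had 0 counts. The relation of the word to the level was not tested here either. The stretches of the 3 highest genes are set beside that of PCDHB1.
PCDHB14 (chr5:141223263-141223292, plus strand): tggagacacatGGTGGCGCtacaggataag
PCDHB3 (chr5:141100393-141100422, plus strand): agcgaacgcatGGTGGCGCtgttgactaag
PCDHB9 (chr5:141187074-141187103, plus strand): ggaagccacaaGGTGGCGCtgcagactgaa
PCDHB1 (chr5:141051337-141051366, plus strand): ggctagcctttGGTGGTGCtgcagttagag
PCDHB1 differed by C6T, which also falls in the CGCT core, though CGCT occurs elsewhere in its window. The 13 genes with the exact word ranged from 0.48 to 22.3 CPM. A stretch within 1 substitution of the beta word occurs on either strand in 37.5% of all promoters, so such a stretch is common.

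In the gamma cluster the stretches of the 4 highest genes are shown, of which 3 carry the exact word.
PCDHGC3 (chr5:141475883-141475912, plus strand): ggactctgtgtGCCGCTGTcggccaatgaa
PCDHGA7 (chr5:141382652-141382681, plus strand): ggactcacagcGCCGCTGTtcaccaaccag
PCDHGC4 (chr5:141484955-141484984, plus strand): tgagcccgggaGCCGCTGTctgccaatcgg
PCDHGB7 (chr5:141417586-141417615, plus strand): agcctctgggcGCCGCCGTcggccagtgca
PCDHGB5 (chr5:141397866-141397895, plus strand): tgactctgggcGCCGCTGTtggccaaagtg
PCDHGB5, the lowest gamma gene with 1, 3 and 0 counts, is added because it carries the exact word too. PCDHGB7, at 13.6 CPM, differed by T6C, which also falls in the CGCT core, though CGCT occurs elsewhere in its window. PCDHGA2, PCDHGA3, PCDHGA4, PCDHGB2, PCDHGA5 and PCDHGA6 all differed by C2T, PCDHGB3 by G7C and PCDHGA11 by T8C. All 20 gamma promoters were thus within 1 substitution of the word, which 30.6% of all promoters are when both strands are searched. Genes with the exact word ranged from 0.119 to 90.1 CPM, so in this cluster the word was found at both ends of the range. PCDHA9, PCDHA11, PCDHGB5 and the other genes named for their substitutions were picked with their values in view.

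The 4 C-type promoters with an entry had more GC than the median promoter of each cluster, and PCDHGC5, the lowest C-type gene, had no entry. For 5 members (PCDHGB1, PCDHGB4, PCDHGB5, PCDHGB6 and PCDHGC4) RefSeq gives 2 starts. Words were searched in both windows, and the values here and the cluster medians use the upstream one. GC content was 66.0% in PCDHAC1, 63.0% in PCDHAC2, 59.0% in PCDHGC3 and 60.7% in PCDHGC4, against cluster medians of 37.3% for alpha, 40.8% for beta and 42.0% for gamma promoters. The median over all promoters was 58.7%. CpG dinucleotides, the sites of DNA methylation, numbered 27, 15, 18 and 23 in these 4 windows, against medians of 7, 7.5 and 7 in the alpha, beta and gamma clusters and 14 over all promoters. PCDHB3, the highest beta gene per kilobase, had a promoter of 43.0% GC with 12 CpG, and PCDHGA7 one of 41.0% GC with 6, so high levels were also found with low GC. The downstream windows of PCDHGB6, PCDHGB5 and PCDHGB4 had 58.7 to 65.0% GC with 25, 19 and 17 CpG, and these genes had 0.421, 0.119 and 0.794 CPM. The downstream starts of these genes are the first bases of their coding exons, so these windows include coding sequence. The upstream windows of PCDHGB6, PCDHGB5 and PCDHGB4 had 50.0, 48.3 and 49.7% GC with 16, 14 and 13 CpG. Methylation itself was not measured.

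Genes that act on these promoters were all present. Each of 27 promoter and chromatin regulators of the clusters passed the minimum, with a median of 109 CPM and of 13.3 CPM per kb. The minimum was also passed by 62.3% of protein-coding genes. CTCF, which binds the promoters and the enhancers, had 133.7, 144.0 and 141.6 CPM, a mean of 139.8 ± 5.36 CPM. Among cohesin subunits, SMC1A had 678 ± 60.6 CPM and RAD21 300 ± 21.7 CPM. SMCHD1, a chromatin protein that represses the clusters in mice, had 113 ± 11.4 CPM, and the maintenance methyltransferase DNMT1 had 389 ± 35.1 CPM. The lowest of the list were the methyltransferase DNMT3B (21.7 ± 2.25 CPM) and TET1 (16.9 ± 1.30 CPM), which oxidises methylated cytosine.

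Partners on the cytoplasmic side were present too. All 15 binding partners and downstream enzymes passed the minimum, as did 62.3% of protein-coding genes. Their median was 154 CPM and 15.3 CPM per kb. RET, a receptor tyrosine kinase that phosphorylates alpha and gamma protocadherins, had 886, 821 and 724 CPM, a mean of 810 ± 81.2 CPM. CTNNB1, the effector of Wnt signalling, had 507 ± 5.34 CPM and MARCKS, an actin-binding protein of the pathway by which gamma protocadherins act on dendrites, 226 ± 20.1 CPM. The lowest were PDCD10 (43.8 ± 9.77 CPM), an adaptor known to bind protocadherin tails, and the kinase PTK2B (8.64 ± 0.575 CPM).

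Other adhesion genes of the superfamily gave a reference for the members. Of 12 non-clustered protocadherins, 7 passed the minimum, with PCDH18 at 23.0 ± 1.27, PCDH9 at 21.8 ± 2.35 and PCDH1 at 10.6 ± 1.20 CPM, and PCDH11X and PCDH20 at 0 counts in all libraries. PCDH20 has only 201 own bases, so its 0 says little about its level. Of 19 classical cadherins 6 passed. The share over protein-coding genes was 62.3%. CDH2, the neuronal N-cadherin, had 419 ± 24.3 CPM, followed by CDH11 with 46.4 ± 4.23 CPM and CDH24 with 46.9, 43.9 and 41.6 CPM in the 3 libraries, and 6 genes, among them CDH10 and CDH12, had 0 counts in all libraries. Per kilobase the median was 0.24 CPM for the non-clustered protocadherins and 0.0293 CPM for the classical cadherins, against 0.47 CPM per kb for all clustered members.

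Other genes of the region were measured as well. DIAPH1 (253 ± 17.9 CPM), TAF7 (238 ± 3.73 CPM) and HARS1 (179 ± 11.6 CPM), which flank or lie between the clusters, were the highest of these genes. Of 13 pseudogenes and neighbours within the locus, 8 passed the minimum, which 62.3% of protein-coding genes and 22.9% of all genes also did. The protocadherin pseudogene PCDHGB8P had 2, 0 and 0 counts, and SLC25A2, a mitochondrial ornithine transporter gene between the beta and gamma clusters, had 0 in each library.

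**Figure D5:**
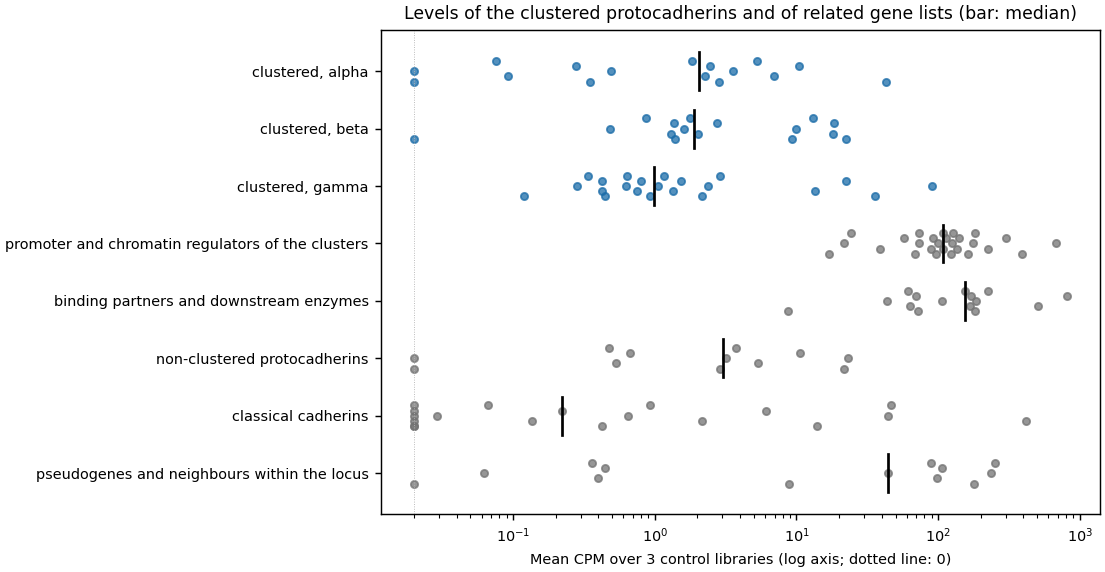
Mean CPM over the 3 control libraries (log axis) of the clustered protocadherins, by cluster (blue), and of the genes in 5 related lists (grey), with the median of each as a black bar and values of 0 on the dotted line. The regulators have a median of 109 CPM and the binding partners of 154 CPM, and the highest clustered gene, PCDHGC3, has 90.1 CPM. Values are not corrected for gene length.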

How the data were processed

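Messenger RNA of SH-SY5Y cells was sequenced from libraries made with a stranded kit, per the labels' protocols. The deposited table gives raw counts per Ensembl gene as whole numbers, per the file headers. The authors used fastp 0.21.1, STAR 2.7.7a and featureCounts with GRCh38, per the submitters' processing notes. The annotation release, the strand setting and the treatment of reads that match several genes are not given in the sources used here. Columns numbered 4, 5 and 6 match the numbers in the labels of control replicates 1, 2 and 3. The other 3 count columns match no label and were not used. The planned edgeR comparison of peptide with control was therefore not run, and all values are descriptive, without a test.

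The table lists 60710 genes, of which 1 (ANK2) has no values in these columns because its entry is broken. Symbols matched 60436 of the others. Counts were scaled to CPM with TMM factors (edgeR 4.0.16, R 4.3.3). Depth was 8887854 to 11397407 counts per library. The limit for 0 covers counting error only. Lengths, exons and coordinates come from GENCODE release 29 (GRCh38), which had models for 58419 genes and may differ from the authors' annotation. Own bases are exonic bases that overlap no exon of another gene on either strand. Recurrence was the share of 50-base windows of own sequence, or of 100-base windows where stated, found in transcripts of other genes. A GC trend was taken per library as the median deviation in 50 GC bins of nuclear genes averaging at least 100 counts. TMM scaling and trend removal were tested on simulated data. Python 3.11.15 was used with numpy 2.4.6, pandas 2.3.3 and matplotlib 3.10.9.

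Members and gene lists were chosen with earlier results of these data known. The text names the 5 members of each cluster with the highest mean CPM, the C-type genes, every member at 0 counts in all libraries, the highest 3 and lowest 2 genes of each list, and CTCF, RAD21 and SMCHD1. Other members are named where their length, recurring windows or promoter is described, and were picked after their values were seen. One list fixed with the others is not reported here. Other settings tried were RLE size factors, scaling by library size alone, mitochondrial genes left out of the total, the GC trend removed, other count minimums, other lengths and each library left out in turn.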

Additional observations from a re-analysis of the deposited data

How the results depend on the processing

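No paired analysis was possible because only control samples had matching count columns. The alternatives planned for the comparison of peptide with control (the replicate block, DESeq2, RLE size factors, no filter on low counts and each replicate left out) were not run for the same reason.

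RLE size factors and library size alone left the sum of each cluster and the level of each of 51 detected members within the spread between replicates. The difference of replicate 3 in each cluster stayed within the 95% counting error of its main value. With mitochondrially encoded genes left out of the total, the beta sum became 110.02 CPM, from 104.8, and 4 of 51 members moved by more than their SD. The total is then smaller, which raises every gene, and the SD of the beta sum was 0.284 CPM. Per length, the share of the highest gene became 56.8% in the alpha and 48.3% in the gamma cluster. At a minimum of 5 counts 15 gamma genes passed, and at 1 count 21, in place of 8. With the GC trend removed, the difference of replicate 3 in the gamma sum became -0.0013 on the log2 scale, and -0.0395 with the GC of own bases, an alternative added after the data were seen. Levels per kilobase moved by more than their SD in 22 of 51 members with the longest transcript as length, in 16 with the main coding exon and in 2 with overlap judged on the same strand. The last pair of lengths was added after the data were seen.

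Leaving out 1 library gave sums of 76.8 to 83.3 CPM (alpha), 104.7 to 104.9 CPM (beta) and 175 to 186 CPM (gamma), and 9, 10 to 12 and 8 to 10 genes with at least 10 counts. A mean of 3 libraries cannot move by 1 SD when 1 is left out, so these ranges say little about stability. Depth limits the low members most: 24 of the 54 had counts but fewer than 10 in at least 1 library, and 3 had 0 in all libraries.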
